A study of Solanum lycopersicum with 12 samples.

Results

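Tomato primary root sections holding a lateral root primordium at stage 2, its first periclinal division, were compared with sections at stage 1, in which a pair of cells expressed the auxin reporter DR5. The comparison rests on 4 of the 12 libraries of the series: 2 of stage 2 and 2 of stage 1, chosen by the stage in their labels. All plants were seedlings of cultivar M82 carrying DR5::VENUSx3-NLS, a nuclear fluorescent protein under a synthetic auxin-responsive promoter, grown on agar with MS salts and sucrose and given no treatment. The other 8 libraries came from stages 3, 4 and 5, whose primordia pass the endodermis, lie midway in the cortex or reach the epidermis, and from a control, a piece of the differentiation zone in which no lateral root was present. A section is a piece of primary root, so tissue around the primordium was sequenced with it. The labels do not say how many plants went into a library or whether duplicates came from separate batches of plants. p-values therefore measure only the spread between these libraries.

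Lateral roots start in the pericycle, the outermost layer of the vascular cylinder. There, auxin accumulates in founder cells, which divide across the root axis before some daughters divide parallel to the root surface. That periclinal division makes a second cell layer and is the step at which a file of cells becomes a primordium, which then grows out through the overlying endodermis, cortex and epidermis. Genes are given below by locus tag only, because the tags were not paired with gene names in the sources used here. For the same reason no role is given to a gene, no pathway list could be read, and the labelled tissue was not checked against marker genes.

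The stage 2 libraries held 5624142 and 3549716 counts and the stage 1 libraries 6196272 and 6018839 counts, so both stage 1 libraries were deeper. The rank correlation of expression was 0.970 between the stage 2 duplicates and 0.973 between the stage 1 duplicates, and it was between 0.953 and 0.964 for the 4 pairs of a stage 2 with a stage 1 library. Levels are given as CPM, counts scaled to a common library total with factors from the trimmed mean of M-values (TMM). The libraries were made with a 3′ kit that reads the end of each transcript, so no length correction was made and levels of different genes are not compared.

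At the first periclinal division 29 genes were lower and 22 genes higher than at the founder pair. Most of the genes that fell, led by Solyc07g049240 and Solyc12g005787, had their highest level of the series at stage 1, and most of those that rose, led by Solyc01g067300 and Solyc08g006020, had their lowest level there. Of 18357 tested genes, 51 passed (0.278%), with 22 higher (0.12%) and 29 lower (0.158%) at stage 2 (edgeR's quasi-likelihood test across all 12 libraries, adjusted p-value under 0.05). All 51 had fitted changes of more than 2-fold, and both stage 2 libraries lay on the same side of both stage 1 libraries in each, a separation also found for 17.7% of all tested genes in the higher direction and 22.9% in the lower. The number depended on every library: it was 7 without stage 1 replicate 1, 22 without stage 1 replicate 2, 26 without stage 2 replicate 1 and 6 without stage 2 replicate 2. Of the 51 genes, 49 lost the call in at least 1 of these 4 fits (largest adjusted p-value 0.604, edgeR) and 22 lost it in all 4. Fitted on the 4 libraries alone, with their own scaling, the test called 140 genes, 40 higher and 100 lower.

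**Figure D1:**
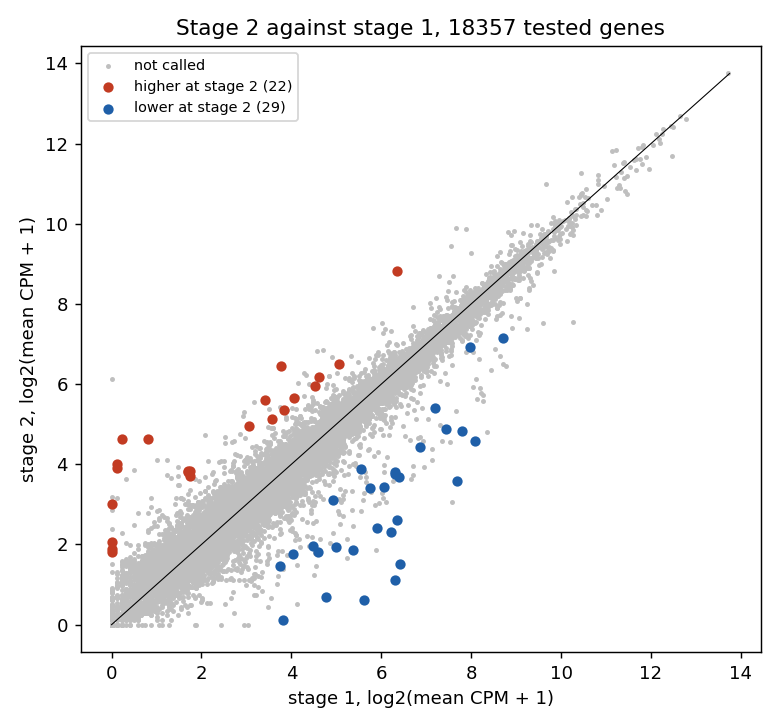
Mean level at stage 2 (vertical) against mean level at stage 1 (horizontal), both as log2(mean CPM + 1), for 18357 tested genes. Each point is a gene, the line marks equal levels, red points are the 22 genes higher and blue points the 29 genes lower at stage 2 by edgeR's test; grey points far from the line did not pass it.

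Nearly all genes that fell peaked at stage 1. Their median level over the 29 genes was 7.61 CPM at stage 2 and 73.4 CPM at stage 1, while the control had 1.96 CPM and stages 3, 4 and 5 had 1.77, 1.79 and 1.19 CPM. In 28 of the 29, both stage 1 libraries were above all 10 other libraries of the series, which was true of 8.61% of all tested genes. The exception was Solyc06g084820, whose first stage 5 library reached 26.1 CPM, against 16.4 and 14.2 CPM at stage 1. Because the genes were chosen for a high stage 1 and a low stage 2, the position of stage 1 describes them and is not tested. In bulk sections, fewer cells of a type and less RNA per cell cannot be told apart.

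Most genes that rose were low at stage 1. Their median level over the 22 genes was 23.8 CPM at stage 2 and 2.35 CPM at stage 1, while the control had 27.9 CPM and stages 3, 4 and 5 had 45.5, 73 and 37.3 CPM. In 15 of the 22, both stage 1 libraries were below all 10 other libraries, against 2.30% of all tested genes. In 17 of the 22 both control libraries were above both stage 1 libraries, against 19.9% of all tested genes. In 13 of the 22 both control libraries were above both stage 2 libraries, against 18.6% of all tested genes. These genes were chosen for a stage 1 level below that of stage 2, which favours a low stage 1 against any other group, so the counts are a description.

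**Figure D2:**
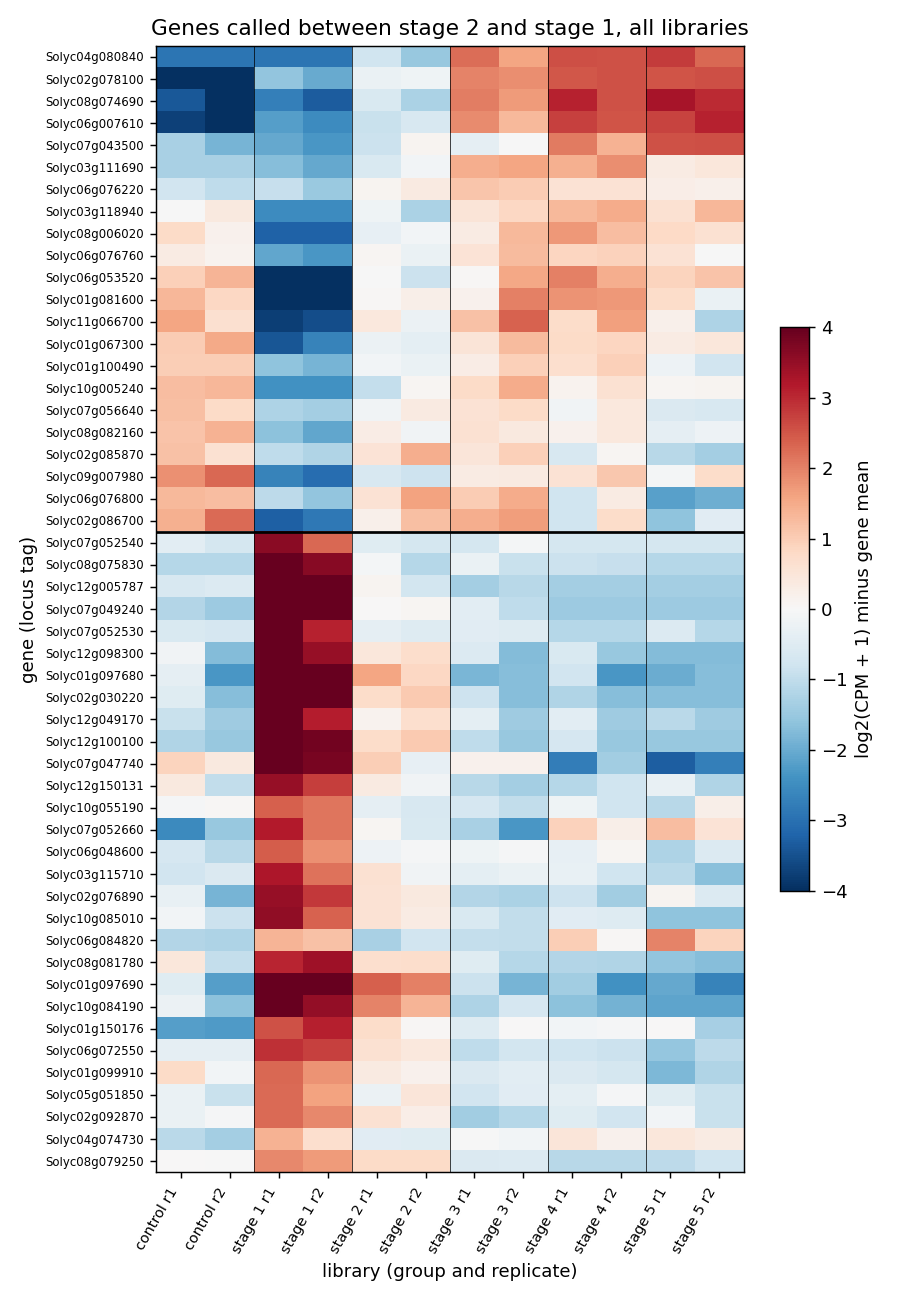
Levels of the 51 called genes (rows) in the 12 libraries (columns, by group and replicate), as log2(CPM + 1) minus the gene's mean over all libraries, with colours ending at −4 and 4. The 22 genes above the black line were higher and the 29 below it lower at stage 2 than at stage 1; most genes below the line are red in the stage 1 columns and paler or blue elsewhere, and those above it are blue there.

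The gene with the smallest p-value among those that rose was Solyc01g067300. It stood at 91.8 and 82.6 CPM in the stage 2 libraries, against 9.28 and 16.1 CPM in the stage 1 libraries. The groups were far apart, with a log2 difference of 2.78 ± 0.32 (SE, edgeR adjusted p-value 0.00553). The control libraries, at 220 and 312 CPM, were higher than those of either stage, and the 6 libraries of stages 3 to 5 lay between 137 and 264 CPM. Without stage 1 replicate 1 its adjusted p-value was 0.0589.

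Solyc08g006020 was next in rank. It had 36 and 28 counts in the stage 2 libraries, 6.37 and 7.63 CPM, and 0 counts in both stage 1 libraries. Set against a floor of 3 counts in each stage 1 library, a mean of 0.504 CPM, the stage 2 mean was higher by a factor of at least 13.9 (adjusted p-value 0.0126, edgeR). It was present in the control, at 14.9 and 9.48 CPM, and between 10.6 and 30 CPM at stages 3 to 5. The call was lost without either stage 1 library (adjusted p-values 0.068 and 0.0524, edgeR), without stage 2 replicate 2 (0.0564) and after thinning all libraries to the smallest total (0.0571).

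Among the genes that fell, Solyc07g049240 and Solyc12g005787 had the smallest p-values. Solyc07g049240 had 1.77 and 1.91 CPM in the stage 2 libraries, against 100 and 68.3 CPM in the stage 1 libraries (log2 change −5.51 ± 0.39 SE, adjusted p-value 0.00111, edgeR). It had 1 and 0 counts in the control libraries and 0 counts in all 4 libraries of stages 4 and 5. Solyc12g005787 had 1.77 and 0.545 CPM in the stage 2 libraries, against 96.7 and 58.4 CPM in the stage 1 libraries (log2 change −5.91 ± 0.47 SE, adjusted p-value 0.00158, edgeR). Its control libraries held 3 and 2 counts. These were the 2 genes that stayed called without each of the 4 libraries in turn, with adjusted p-values between 0.00407 and 0.0347 for both. Both had fractional counts, which arise where reads are divided among similar genes, so their levels are uncertain to that extent.

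**Figure D3:**
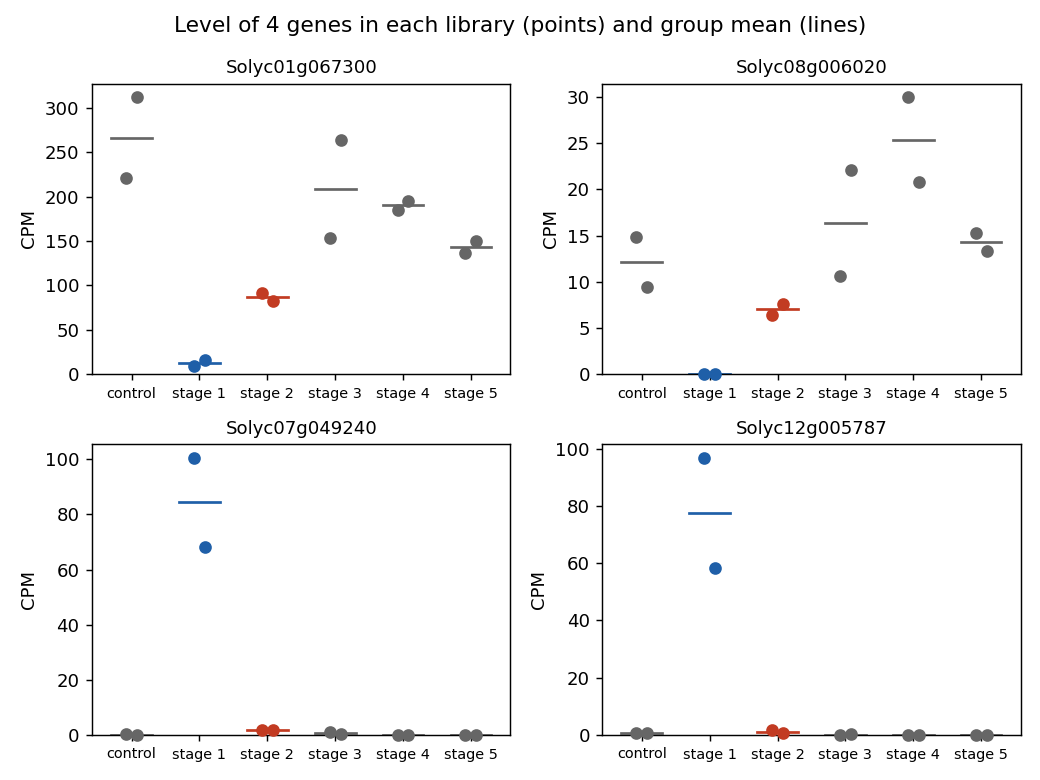
Level in CPM (vertical, linear axis from 0) of Solyc01g067300, Solyc08g006020, Solyc07g049240 and Solyc12g005787 in each of the 12 libraries, by group (horizontal). Points are libraries and short lines group means, with stage 2 in red, stage 1 in blue and other groups in grey; the upper genes have 0 to 16.1 CPM in the stage 1 libraries and more in every other group, and for the lower pair the stage 1 libraries stand alone at 58.4 to 100 CPM.

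To ask whether these genes also differed later, stages 3 to 5 were compared with the control, a contrast of levels that contains no stage 1 or stage 2 library. Both contrasts came from the same model and share its estimate of each gene's spread, so their calls are not independent. The later contrast called 42.4% of all tested genes, 22.3% higher and 20.1% lower. Of the 22 genes that rose between stage 1 and stage 2, 14 (63.6%) were called, 7 higher and 7 lower. Of the 29 that fell, 11 (37.9%) were called, 4 higher and 7 lower, a share near that of all genes. Without control replicate 1, the number called lower over both sets was 8, against 14 with all libraries. The 3 outcomes divide the genes below, and the tags named from here on were chosen after their values were seen.

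The 7 genes that rose and were also higher than the control later had both stage 2 libraries above both control libraries, against 31.6% of all tested genes. The count is a description, because these genes were chosen for a rise to stage 2 and a control below the later stages. In the later contrast the 6 of them with counts in the control had log2 changes of 1.52 to 7.75. They were Solyc02g078100, Solyc06g007610, Solyc08g074690, Solyc04g080840, Solyc07g043500, Solyc03g111690 and Solyc06g076220. Solyc02g078100 had 69.2 and 74.4 CPM at stage 2, against 27 and 19.9 CPM at stage 1 (log2 change 1.61 ± 0.21 SE, adjusted p-value 0.0126, edgeR). Solyc06g007610 had 44.9 and 53.4 CPM at stage 2, against 17.2 and 13.9 CPM at stage 1 (log2 change 1.66 ± 0.26 SE, adjusted p-value 0.0224, edgeR). It then stood at 208 to 310 CPM at stage 3 and 477 to 713 CPM at stages 4 and 5, against 5.32 and 3.41 CPM in the control. Solyc08g074690 had 16.4 and 10.1 CPM at stage 2, against 3.04 and 1.67 CPM at stage 1 (log2 change 2.50 ± 0.40 SE, adjusted p-value 0.0224, edgeR). It lost the call after thinning all libraries to the smallest total (adjusted p-value 0.232, edgeR). In these 3 genes both stage 1 libraries were also above both control libraries, against 37.1% of all tested genes. The choice of a control below the later stages favours this. Solyc08g074690 had 7 and 1 counts in the control libraries, against 18 and 10 counts at stage 1. Each of the 3 was higher again in both stage 3 libraries than at stage 2. The control is a root piece with no lateral root and was not taken as an earlier stage.

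Solyc04g080840 had 19 and 6 counts in the stage 2 libraries and 0 counts in all 4 libraries of stage 1 and the control. The stage 2 mean was at least 4.95 times the floor of stage 1, with an adjusted p-value of 0.0484 (edgeR) that lay between 0.0887 and 0.226 when any 1 of the 4 libraries was left out. At stages 3 to 5 it was between 21.9 and 51.9 CPM. Of the 22 genes that rose, 4 had 0 counts in both stage 1 libraries. Among these, Solyc04g080840 alone also had 0 counts in both control libraries.

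The other 3 of these genes rose at the same step but reached their highest levels at different times. Solyc06g076220 had 55.2 and 66.8 CPM at stage 2, against 26.5 and 17.7 CPM at stage 1 (log2 change 1.46 ± 0.22 SE, adjusted p-value 0.0166, edgeR), and was highest at stage 3, at 112 and 104 CPM. Solyc03g111690 had 27.8 and 39.8 CPM at stage 2, against 12.3 and 9.54 CPM at stage 1 (log2 change 1.62 ± 0.24 SE, adjusted p-value 0.0166, edgeR). Its level was 117 to 158 CPM at stages 3 and 4 and 53.5 and 58.6 CPM at stage 5. Solyc07g043500 had 20 and 40.1 CPM at stage 2, against 8.1 and 6.53 CPM at stage 1 (log2 change 2.02 ± 0.36 SE, adjusted p-value 0.0463, edgeR), and was highest at stage 5, at 222 and 223 CPM.

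The 7 genes that rose but were lower than the control later all had both control libraries above both stage 1 libraries (19.9% of all tested genes). The count is a description, because these 7 genes were chosen for a low stage 1 and a control above the later stages. Their log2 changes in the later contrast lay between −1.75 and −0.66. They were Solyc08g082160, Solyc09g007980, Solyc02g086700, Solyc06g076800, Solyc02g085870, Solyc01g100490 and Solyc07g056640. Solyc06g076800 had 296 and 610 CPM at stage 2, against 94.5 and 66.1 CPM at stage 1 (log2 change 2.50 ± 0.40 SE, adjusted p-value 0.0224, edgeR). The stage 2 duplicates differed from each other, and the control libraries, at 487 and 471 CPM, lay between them. By stage 5 the gene was at 42.9 and 50 CPM, below its stage 1 level. Solyc02g086700 had 15.6 and 31.9 CPM at stage 2, against 0.506 and 1 CPM at stage 1 (3 and 6 counts) (log2 change 4.90 ± 0.74 SE, adjusted p-value 0.0166, edgeR). Its control libraries were at 37.9 and 69 CPM, its stage 3 libraries at 38.5 and 44.5 CPM and its stage 5 libraries at 3.69 and 9.58 CPM. For both genes the stage 1 libraries were below those of the control and of stage 2, and both stage 5 libraries were below both stage 3 libraries.

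Solyc09g007980 was still well below the control at stage 2. It had 14.1 and 12.3 CPM at stage 2, against 2.7 and 1.84 CPM at stage 1 (log2 change 2.53 ± 0.37 SE, adjusted p-value 0.0161, edgeR). The control libraries were at 82.5 and 113 CPM and those of stages 3 to 5 between 21.3 and 48.7 CPM, so stage 2 remained below every group other than stage 1.

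The 8 genes that rose and were not called later had both control libraries above both stage 2 libraries in every case (18.6% of all tested genes). The count is a description, because these 8 genes were chosen for a rise from stage 1 and for the lack of a later call. Beside Solyc01g067300 and Solyc08g006020 they were Solyc06g053520, Solyc01g081600, Solyc06g076760, Solyc11g066700, Solyc10g005240 and Solyc03g118940. All but Solyc01g067300 and Solyc06g076760 were at or under 3 counts in each stage 1 library. Those 6 genes together ranged from 5 to 126 counts per stage 2 library, against 0 to 2 counts per stage 1 library, and from 17 to 250 counts per control library. Their levels were 1.36 to 25.3 CPM at stage 2, against 0 to 0.335 CPM at stage 1, with 4.66 to 55.4 CPM in the control and 4.74 to 89.7 CPM at stages 3 to 5.

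Solyc06g053520 had 112 and 39 counts at stage 2, against 0 and 1 counts at stage 1, a ratio of 193 at equal depth with an exact interval of 34.1 to 7663 that covers counting error only (adjusted p-value 0.0126, edgeR). Solyc01g081600 had 126 and 93 counts at stage 2, against 0 and 2 counts at stage 1, a ratio of 140 with an interval of 38.2 to 1161 (adjusted p-value 0.0126, edgeR). Solyc11g066700 had 98 and 39 counts at stage 2, against 0 and 1 counts at stage 1, a ratio of 175 with an interval of 30.9 to 6957 (adjusted p-value 0.0166, edgeR). Each of these genes was therefore near absent from both stage 1 libraries, the deepest of the series, and present in all other libraries. Solyc10g005240 and Solyc03g118940 had 0 counts in both stage 1 libraries and were at least 6.35- and 5.39-fold higher at stage 2 (adjusted p-values 0.0367 and 0.0416, edgeR). After thinning all libraries to the smallest total, Solyc01g081600 stayed called (adjusted p-value 0.0107, edgeR). The calls of Solyc06g053520, Solyc11g066700, Solyc10g005240 and Solyc03g118940 were then lost (adjusted p-values 0.0566, 0.0645, 0.168 and 0.215, edgeR). Solyc06g076760 had 14.7 and 11.4 CPM at stage 2, against 2.53 and 2.01 CPM at stage 1 (log2 change 2.52 ± 0.36 SE, adjusted p-value 0.0151, edgeR).

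Such an absence at a single stage was looked for in all tested genes. Only 4 genes had at most 3 counts in both stage 1 libraries and at least 10 counts in each of the other 10 libraries. They were Solyc08g006020, Solyc06g053520 and Solyc01g081600, described above, and Solyc09g092470, which was not called (adjusted p-value 0.118, edgeR). The same pattern was found for no gene (0) at stages 2 and 4, for 1 gene at stage 3, for 42 genes in the control and for 32 at stage 5. The shallowest libraries were replicate 2 of stage 5 and replicate 2 of the control, with 1948144 and 2641164 counts. Next came replicate 2 of stage 2, with 3549716 counts. The numbers of genes are a description, and the part of depth in them was not tested.

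**Figure D4:**
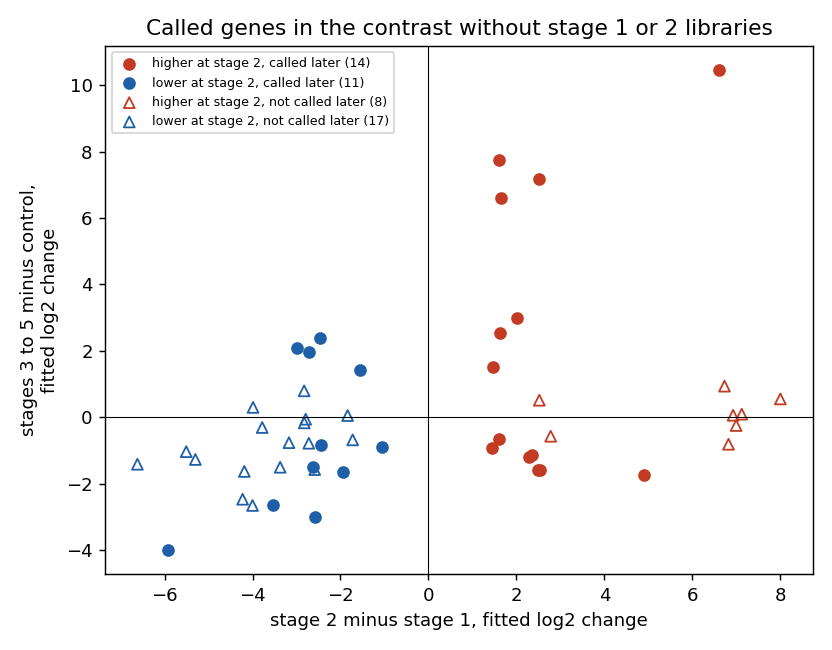
Fitted log2 change of stages 3 to 5 minus control (vertical) against that of stage 2 minus stage 1 (horizontal) for 50 of the 51 called genes. Red marks genes higher and blue genes lower at stage 2, filled circles those called in the later contrast and open triangles those not called; fitted values of genes at 0 in a group depend on a prior count, and Solyc08g075830, with 0 counts in the control and no stable fit, is left out.

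Of the 29 genes that fell, 21 still had both stage 2 libraries above both control libraries, against 31.6% of all tested genes, and 19 had both stage 2 libraries above all 6 libraries of stages 3 to 5, against 19.3% of all tested genes. The genes were chosen for a stage 2 level below that of stage 1, so these counts are a description. Stage 2 was an intermediate level for most of them. For example, Solyc01g097690 had 32.4 and 24.5 CPM at stage 2, against 190 and 153 CPM at stage 1, with 3.55 and 0.379 CPM in the control and at most 2.5 CPM at stages 3 to 5 (log2 change −2.59 ± 0.43 SE, adjusted p-value 0.0311, edgeR). That call was lost with DESeq2 (adjusted p-value 0.437) and when any 1 of the 4 libraries was left out (0.0945 to 0.425, edgeR). Solyc10g055190 was the single gene with both stage 2 libraries, at 2.83 and 2.18 CPM, below both control libraries, at 3.77 and 4.17 CPM.

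In 7 of the 29 genes the later stages were lower than the control. They were Solyc12g005787, Solyc06g072550, Solyc07g047740, Solyc08g081780, Solyc08g079250, Solyc01g099910 and Solyc10g084190. Solyc07g047740 had 33.2 and 12.8 CPM at stage 2, against 298 and 243 CPM at stage 1 (log2 change −3.52 ± 0.44 SE, adjusted p-value 0.0101, edgeR). It had 31 and 21.6 CPM in the control and 0.79 and 1.6 CPM at stage 5. Solyc06g072550 had 10.4 and 8.99 CPM at stage 2, against 56.5 and 49.2 CPM at stage 1 (log2 change −2.43 ± 0.24 SE, adjusted p-value 0.00201, edgeR). Its control libraries were at 4.88 and 4.93 CPM. Solyc08g079250 had the smallest change of all called genes, with 121 CPM in both stage 2 libraries, against 272 and 231 CPM at stage 1 (log2 change −1.06 ± 0.17 SE, adjusted p-value 0.0224, edgeR). For Solyc12g005787 the later call compares libraries that were all at or under 3 counts.

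In 4 of the 29 genes the later stages were higher than the control, although each had a lower level at stage 2 than at stage 1. Solyc04g074730 had 143 and 140 CPM at stage 2, against 516 and 315 CPM at stage 1 (log2 change −1.55 ± 0.23 SE, adjusted p-value 0.0166, edgeR), with 93.6 and 77 CPM in the control and 181 to 277 CPM at stages 3 to 5. Solyc07g052660 had 34.1 and 21 CPM at stage 2, against 298 and 145 CPM at stage 1 (log2 change −2.99 ± 0.47 SE, adjusted p-value 0.0214, edgeR). Its stage 3 libraries were at 12.5 and 5.61 CPM and its stage 5 libraries at 78 and 47.9 CPM, with 4.66 and 10.6 CPM in the control. Solyc01g150176 had 25.5 and 15.5 CPM at stage 2, against 91.9 and 137 CPM at stage 1 (log2 change −2.47 ± 0.36 SE, adjusted p-value 0.0159, edgeR). It had 5.32 to 15.1 CPM at stages 3 to 5 and 2.44 and 2.28 CPM in the control. Solyc06g084820 had 1.77 and 3 CPM at stage 2, against 16.4 and 14.2 CPM at stage 1 (log2 change −2.72 ± 0.48 SE, adjusted p-value 0.0448, edgeR). It lost the call after thinning all libraries to the smallest total (adjusted p-value 0.103, edgeR). Its stage 3 libraries, at 2.5 and 2.43 CPM, were close to the control, at 2 and 1.9 CPM. The libraries of stages 4 and 5 lay between 6.05 and 26.1 CPM.

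The remaining 18 genes that fell were not called in the later contrast. Their libraries ranged from 0 to 51.2 CPM at stage 2, against 7.03 to 265 CPM at stage 1, with 0 to 29.7 CPM in the control and 0 to 34.6 CPM at stages 3 to 5. One of them, Solyc01g097680, had 14.1 and 7.9 CPM at stage 2, against 265 and 145 CPM at stage 1 (log2 change −4.19 ± 0.58 SE, adjusted p-value 0.0127, edgeR; 0.325 with DESeq2). Over all 29 genes, 7 had at most 3 counts in both control libraries and 15 had at most 3 counts in both stage 5 libraries, so the later contrast rests on few counts for them.

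Neighbouring tags were found among the called genes. Solyc01g097680 and Solyc01g097690 stand in consecutive rows of the table, as do Solyc07g052530 and Solyc07g052540, and all 4 fell. Solyc07g052530 had 4 and 2 counts at stage 2, against 206 and 106 counts at stage 1 (log2 change −5.30 ± 0.57 SE, adjusted p-value 0.00553, edgeR). Solyc07g052540 had 1 and 0 counts at stage 2, against 113 and 42 counts at stage 1, a ratio of stage 2 to stage 1 of 0.00824 with an exact counting interval of 0.000207 to 0.0466 (adjusted p-value 0.0484, edgeR). It lost the call after thinning all libraries to the smallest total (adjusted p-value 0.0863, edgeR). All 4 genes of these pairs had fractional counts, so reads may have been divided between neighbours and their levels are uncertain. Solyc06g076760 and Solyc06g076800, both of which rose, lie 4 rows apart and had no fractional counts.

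Fractional counts, meaning a value that was not whole in at least 1 of the 12 libraries, were unevenly spread over the called genes. They were found for 2 of the 22 genes that rose (9.09%) and for 17 of the 29 that fell (58.6%), against 16.7% of all tested genes. The 12 genes that fell with whole counts throughout had a median of 12.3 CPM at stage 2, against 71.8 CPM at stage 1, and in all 12 both stage 1 libraries were above the other 10 libraries. The 17 with fractional counts had a median of 2.86 CPM at stage 2, against 73.4 CPM at stage 1. Besides the genes already marked, Solyc02g085870, Solyc10g005240, Solyc07g047740, Solyc08g079250, Solyc06g084820, Solyc08g075830 and Solyc10g055190 had fractional counts among those named above. The part of shared reads in the calls was not tested.

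No gene with a fitted change under 2-fold was called. The median change over all tested genes was −0.02 on the log2 scale, and the median standard error was 0.32. A fitted change of more than 2-fold in either direction was found for 1349 genes (7.35%), of which the 51 passed the test. At an unadjusted p-value under 0.05 there were 1233 genes, 514 higher and 719 lower at stage 2.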

How the data were processed

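RNA was measured in 12 libraries of tomato root sections, prepared, per the labels' protocols, with the QuantSeq 3′ kit. The table deposited by the authors holds estimated counts for 34027 locus tags, 1 column per library, not scaled. Salmon 1.3.0 and DESeq2 are named in the submitters' processing notes without a role. The genome build, annotation and use of strand are not given in the sources used here. Of the deposited estimated counts, 5.64% were not whole, and all were rounded before testing. The labels mention no molecular identifiers, so counting intervals cover counting error only.

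Groups and replicate numbers came from the sample titles. Genes passing filterByExpr (18357) were scaled by TMM and fitted with edgeR 4.0.16 (R 4.3.3, limma 3.58.1) by its quasi-likelihood test in 1 model of the 6 groups over all 12 libraries, with 6 residual degrees of freedom. Contrasts were stage 2 minus stage 1 and the mean of stages 3 to 5 minus control. p-values were adjusted by Benjamini-Hochberg over all tested genes, and an adjusted p-value under 0.05 was a call. The standard error is the log2 change divided by the square root of F. Folds against a group at 0 use a floor of 3 counts per library, and ratios against 1 to 3 counts have an exact (Clopper-Pearson) interval at equal depth. The fit was tested on simulated counts. Duplicates differed by more than sampling noise (chi-square per degree of freedom 6.8 at stage 2 and 7.47 at stage 1), so none was merged.

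The rule named 2 genes per direction, those with the smallest p-values among called genes whose groups did not overlap. Further tags were named after their values were seen. Pathway and marker lists had been written as searches of gene descriptions; 0 locus tags were paired with a name, so no list was used. The comparison, the rule and the lists were chosen with earlier results of these data known. Alternatives were DESeq2 size factors, DESeq2 1.42.0, other filters, only the libraries compared, the replicate number as a block, thinning, and leaving out each library.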

Additional observations from a re-analysis of the deposited data

How the results depend on the processing

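Each gene that could be fitted kept its direction between stage 2 and stage 1 in all 11 alternatives, which the choice of genes with separate groups partly fixes. The number of calls was less stable. Against 51 calls (22 higher, 29 lower), DESeq2 called 153 (72 higher, 81 lower), of which 46 were shared. Without a filter there were 527 calls (231 higher, 296 lower), including all 51. In that fit the prior degrees of freedom of the spread became infinite, against 6.05, so that p-values no longer allowed for gene-specific spread. With 10 counts required in every library, 12 were called (9 higher, 3 lower). All 12 were among the 51, of which only 15 could be tested. The 4 libraries alone gave 140 (40 higher, 100 lower), with 46 shared, and thinning to the smallest total gave 48 (13 higher, 35 lower), with 34 shared; the cause was not tested for these. A replicate block in the model gave 98 (26 higher, 72 lower), including all 51. The correlation of replicate differences was 0.0719 between stages 1 and 2 and 0.0522 on average over the 15 pairs of groups (range −0.091 to 0.249), and no label ties same-numbered samples to a shared source, so the numbers were not taken as pairs. Leaving out 1 of the 4 libraries gave 6 to 26 calls, 1 to 18 of them higher and 3 to 21 lower, and 22 of the 51 genes were called in none of these fits. In the later contrast, 25 of the 51 genes were called (11 higher, 14 lower), against 13 (5 higher, 8 lower) of the 15 left with 10 counts in every library, and 28 with the replicate block (11 higher, 17 lower). Leaving out 1 library gave 17 to 26 (9 to 11 higher, 8 to 15 lower).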
